A study of Mus with 6 samples.

Results

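The genes described here carry out cell division: the kinases and cyclins that start mitosis, the spindle assembly checkpoint, the kinetochore, the mitotic kinesins, the proteins of the spindle and of cytokinesis, and the condensin complex that packs chromosomes. They were taken from a list of 56 symbols by their names in the deposited table, and 55 of them were among its 10995 protein-coding genes. Cenpf was not analysed here. The question was whether the transcripts of these genes differed between TCR-activated CD4+ T cells grown with and without an antibody that neutralizes VEGF-B, a growth factor that the study examined as one that T cells make for themselves.

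All cells were wild-type naive CD4+ T cells from mouse spleen, that is, helper T cells that have not yet met their antigen. Both groups were activated for 3 days with anti-CD3 (5 μg/mL), anti-CD28 (2 μg/mL) and IL-2 (100 U/mL), a mixture that drives naive cells into division. What differed was the antibody added at 1 μg/mL, which was anti–VEGF-B in 3 RNA-Seq libraries and normal IgG in the other 3. The labels give the libraries as separate samples but no animal or culture for each, so the p values measure the spread between these libraries, which may be technical. With bulk RNA, fewer cells in mitosis and less RNA per dividing cell cannot be told apart.

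In a dividing cell, the transcripts of mitotic genes build up late in the cycle, when the transcription factors FoxM1 and B-Myb act on their promoters, and they fall again after division. Cyclin-dependent kinase 1 with its cyclins, Polo-like kinase 1 and the Aurora kinases bring about entry into mitosis, condensin and topoisomerase II fold the chromosomes, kinetochores attach them to spindle microtubules, and the checkpoint holds back the anaphase-promoting complex until every chromosome is attached. Because resting T cells do not divide, a rise of these transcripts is a familiar mark of T cell activation.

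Values were read as FPKM, that is, fragments scaled for transcript length and for the fragments of the library, a unit inferred from the values and the authors' tools, and n is 3 libraries per group throughout. Summed over all genes they came to between 260058 and 276622 in the 6 libraries, and the read depth is unknown. Differences are log2 fold changes of FPKM + 1, anti–VEGF-B against IgG, with the SE of the fit, a scale on which changes of weakly expressed genes come out smaller than they are. A gene was called lower or higher at an adjusted p under 0.05 (limma, Benjamini-Hochberg over all genes tested). The test was made on 8816 genes, those whose mean over the 6 libraries reached 1 FPKM, and members under this limit are given from a second limma fit of all 10995 genes.

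Anti–VEGF-B went with lower values of most members of the list. The list was chosen with earlier results of these data known, so its counts beside those of all genes are descriptive. Of the 38 members that passed the filter on low values, 23 were called lower, which is 60.5%, against 23.8% of all genes tested. Cenpa was the only one of these members called higher, while 4.87% of all genes tested were. The median log2 fold change was -0.39 over these members and -0.15 over all tested genes. The filter is on the mean of both groups, so a member can pass it through its IgG values alone, and 6 members had an IgG mean of at least 1 FPKM and an anti–VEGF-B mean under 1 FPKM. In the fit of all listed genes, which needs no filter, 29 of the 55 members were called lower, or 52.7%, against 20.6% of all genes, and 1 was called higher, against 3.75% of all genes. In that fit 48 members had a log2 fold change below 0 and 7 above (Aurkb, Bub3, Cdca3, Cenpa, Ncapg, Smc4 and Ube2c), with a median of -0.34 beside -0.15 for all genes. Most genes of the table were below 0 as well, with 8057 of the 10995 below and 2933 above.

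Counted without a model, the 3 anti–VEGF-B values lay under all 3 IgG values in 24 of the 38 tested members and in 35 of all 55, or 63.6%. The same held for 38.5% of all tested genes and 38.4% of all listed genes. Values of the anti–VEGF-B libraries lay above all IgG values in 1 member, Cenpa, and in 10.5% of all tested and 8.87% of all listed genes. An exact permutation test of a single gene with 3 libraries against 3 cannot give a two-sided p below 0.1.

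**Figure D1:**
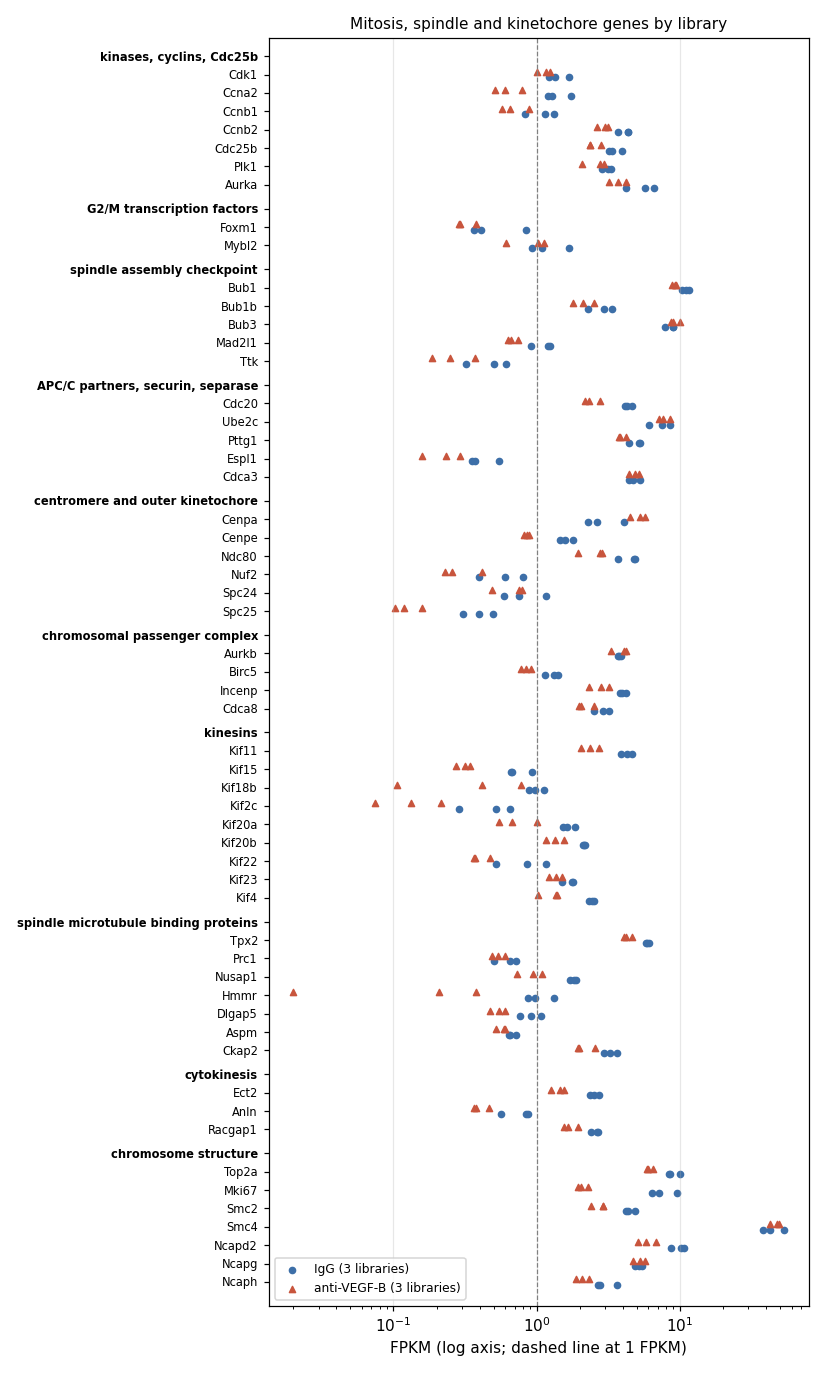
Each point is the FPKM of one of the 55 members in 1 library, on a log axis, with members grouped by role, blue circles for the 3 IgG libraries and red triangles for the 3 anti–VEGF-B libraries; the dashed line marks 1 FPKM. Member means ran from 0.262 to 45.4 FPKM, and in 35 members every triangle lies to the left of every circle.

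Transcripts of most members were scarce in these libraries, with 8 members at a mean of at least 5 FPKM and 2, Smc4 and Bub1, at 10 or more. The members together held 0.0608%, 0.0665% and 0.0581% of all FPKM with anti–VEGF-B and 0.0800%, 0.0804% and 0.0746% with IgG. Every anti–VEGF-B library was therefore below every IgG library in this share. Of the tested members, 21 were highest in IgG replicate 2 and 11 in IgG replicate 1, and 22 were lowest in anti–VEGF-B replicate 3. The median log2(FPKM + 1) of all tested genes was also highest in IgG replicate 2 (3.01) and lowest in anti–VEGF-B replicate 3 (2.68). Such counts over all genes were not made. The members' share of calls was set against genes of a like level. Between 2 and 5 FPKM, 12 of 19 members were called lower, or 63.2%, against 28.7% of the 2343 genes there, and between 5 and 10 FPKM 3 of 6 against 26.8% of 1712, where the medians were -0.19 for the members and -0.18 for all genes. At 10 FPKM or more, neither of the 2 members, Bub1 and Smc4, was called by limma (Bub1 had an unadjusted p under 0.05), against 18% of 3215 genes called lower. Between 1 and 2 FPKM 8 of 11 members were called lower and 25.2% of 1546 genes, but this range holds the 6 members that passed the filter through their IgG values, 5 of them among the 8, so that the count there cannot be set against that of all genes.

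**Figure D2:**
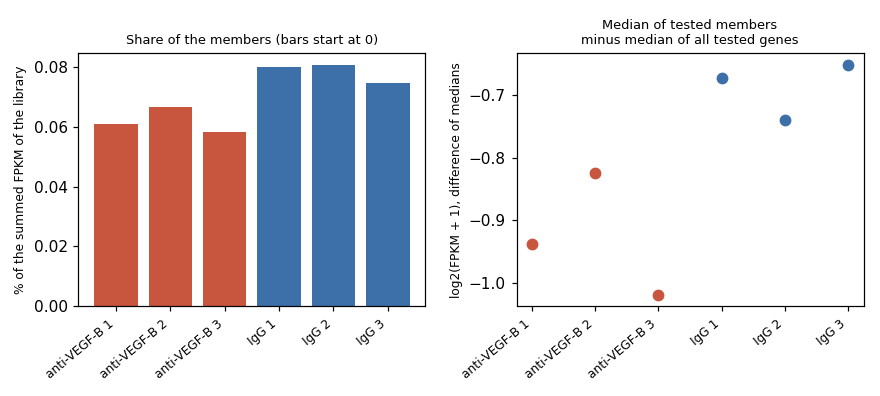
The left panel gives the share of each library's summed FPKM held by the 55 members, in percent from 0, and the right panel the median log2(FPKM + 1) of the tested members minus that of all tested genes; red is anti–VEGF-B and blue IgG, 1 bar or point per library. The shares are 0.0581% to 0.0665% with anti–VEGF-B and 0.0746% to 0.0804% with IgG, and the differences of medians are -1.02 to -0.83 and -0.74 to -0.65.

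The whole table was shifted toward lower values with anti–VEGF-B, and this shift moved with the members. When the libraries were brought to one median, the median log2 fold change of all tested genes went from -0.15 to 0.05 and that of the members from -0.39 to -0.19, and 12 members were called lower against 9.15% of all genes tested. Quantile normalization left 11 members lower against 10.4% of all genes, cyclic loess normalization 9 against 10.6%, and scaling to Actb 16 against 14.8%. Between 27 and 31 of the 38 tested members had a log2 fold change below 0 under these 4 scalings. The like count over all genes was not made. Their median was 0.0077 under quantile, 0.0019 under loess and -0.096 under Actb scaling. A group of 8 members was called lower under every scaling tried, namely Ccna2, Cdc20, Ect2, Kif11, Kif4, Mki67, Ncapd2 and Smc2, and all but Ccna2 were also called lower without any 1 library. How many of all tested genes kept their call in these ways was not counted, so these counts have no background. Ccna2 had an anti–VEGF-B mean under 1 FPKM and passed the filter through its IgG values. Which scaling fits these cells was not tested.

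Other cells in the cultures were looked for by their markers. The 8 CD4 T cell markers summed to between 515 and 555 FPKM with anti–VEGF-B and between 514 and 578 with IgG, and 2 of the 8 were called lower. The CD8 T cell markers summed to 3.32 to 4.69 and 2.29 to 4.21 FPKM, the 1 B cell marker of 5 that was analysed to 0.798 to 1.33 and 0.665 to 1.34, and the 1 NK cell marker of 4 to 0.290 to 0.437 and 0.0390 to 0.512. The 4 myeloid markers of 6 that were analysed summed to 11.4 to 12.9 FPKM with anti–VEGF-B and 12.8 to 28.8 with IgG, where IgG replicate 3 was the high library, and no erythroid marker was analysed. Without IgG replicate 3, 18 members were called lower and Cenpa was called higher, beside 17.3% and 3.72% of all tested genes. The part of other cells in the members' values was not tested.

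The largest change among the members was that of Mki67, the gene of the Ki-67 antigen, which coats mitotic chromosomes and is the usual stain for dividing cells (ENSMUSG00000031004.8, GRCm38 chromosome 7, 135689784 to 135716361). It measured 1.95, 2.28 and 2.04 FPKM with anti–VEGF-B and 6.40, 9.54 and 7.13 FPKM with IgG. The groups lay far apart, and the lowest IgG library was well above the highest anti–VEGF-B library. Mki67 fell by 1.48 ± 0.14 on the log2 scale (limma adjusted p = 0.00279), and its mean was 27.2% of the IgG mean.

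Top2a, which encodes the topoisomerase that untangles sister chromosomes and is often read beside Mki67, changed by less. It measured 6.01, 6.51 and 5.87 FPKM with anti–VEGF-B and 10.0, 8.32 and 8.56 FPKM with IgG, with no overlap, and fell by 0.48 ± 0.10 (adjusted p = 0.0115). Its call was lost under quantile normalization, median centring and cyclic loess normalization (adjusted p = 0.0852, 0.0909 and 0.0694). The ratio of Mki67 to Top2a in FPKM was 0.324, 0.351 and 0.348 with anti–VEGF-B and 0.638, 1.15 and 0.833 with IgG, with no overlap, which restates the larger fall of Mki67.

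The subunits of condensin, which folds chromosomes into their rod shape, differed from each other, and both as reported and under each of the 4 other scalings Smc2 and Ncapd2 were called lower, while Smc4 and Ncapg were above 0 and not called. Smc2 (ENSMUSG00000028312.19, chromosome 4, 52439243 to 52488260), one of the paired ATPases at the core of condensin, measured 2.89, 2.89 and 2.39 FPKM with anti–VEGF-B and 4.31, 4.86 and 4.23 FPKM with IgG. It fell by 0.55 ± 0.11 (adjusted p = 0.00936). Smc4, its partner in the same dimer, measured 47.7, 48.7 and 42.6 FPKM with anti–VEGF-B and 53.1, 37.8 and 42.4 FPKM with IgG. Smc4 had the highest level of all members, its groups overlapped, and its log2 fold change was 0.07 ± 0.12 (adjusted p = 0.673). The Smc4 to Smc2 ratio was 16.5, 16.9 and 17.8 with anti–VEGF-B and 12.3, 7.78 and 10.0 with IgG.

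Ncapd2, a HEAT repeat subunit of condensin I, measured 5.78, 6.75 and 5.10 FPKM with anti–VEGF-B and 10.6, 10.2 and 8.71 FPKM with IgG, with no overlap, and fell by 0.66 ± 0.12 (adjusted p = 0.00768). Ncapg, the other HEAT repeat subunit, measured 4.70, 5.68 and 5.22 FPKM against 4.86, 5.39 and 5.20 FPKM, and the groups lay on top of each other (log2 fold change 0.01 ± 0.10, adjusted p = 0.949). Ncaph, the kleisin that closes the ring, fell by 0.38 ± 0.12 (adjusted p = 0.0439), just inside the threshold, and was outside it in the fit of all listed genes (adjusted p = 0.0528) and without any of 5 of the 6 libraries, the exception being IgG replicate 1 (adjusted p between 0.0632 and 0.145). Under quantile, median, loess or Actb scaling Ncaph was not called either. In all, 5 of the 7 genes of chromosome structure were called lower and none was called higher, beside 23.8% and 4.87% of all tested genes.

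**Figure D3:**
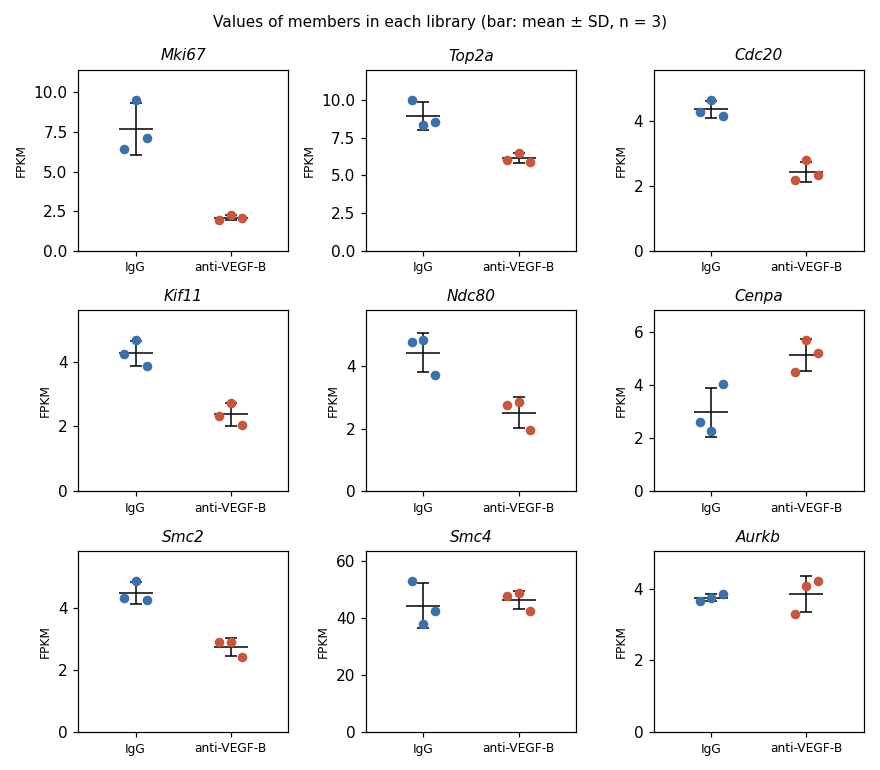
FPKM of 9 members in each library, on linear axes from 0, with the mean and SD of the 3 libraries per group as bars. Mki67, Top2a, Cdc20, Kif11, Ndc80 and Smc2 have no overlap between IgG (blue) and anti–VEGF-B (red) and are lower with anti–VEGF-B, Cenpa has no overlap and is higher, and Smc4 and Aurkb overlap.

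Among the mitotic kinases, cyclins and their activating phosphatase, 3 of 7 were called lower in the fit of all listed genes and none higher. Of all genes, 20.6% and 3.75% were. In the test with the filter 4 of 6 were called lower and none higher. That count is not set against all genes, as Ccna2, 1 of the 4, passed the filter through its IgG values. Ccna2, the cyclin A that acts from S phase to early mitosis, measured 0.784, 0.603 and 0.513 FPKM with anti–VEGF-B and 1.21, 1.74 and 1.28 FPKM with IgG. All IgG values were higher, and the fall was 0.56 ± 0.12 (adjusted p = 0.0129), which just missed the threshold without anti–VEGF-B replicate 3 (adjusted p = 0.0516). Ccnb2, a cyclin B, measured 2.64, 3.12 and 3.01 FPKM against 4.33, 4.34 and 3.71 FPKM and fell by 0.39 ± 0.10 (adjusted p = 0.0258). Cdc25b, the phosphatase that activates cyclin-dependent kinases at the start of mitosis, fell by 0.36 ± 0.11 (adjusted p = 0.0398) with no overlap of its groups.

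The kinase that these cyclins activate, Cdk1, was not called. It measured 1.25, 1.16 and 1.01 FPKM with anti–VEGF-B and 1.67, 1.21 and 1.34 FPKM with IgG, with overlap between the groups, and its log2 fold change was -0.17 ± 0.11 (adjusted p = 0.26). Plk1, which drives centrosome maturation and mitotic entry, was at -0.20 ± 0.12 on the log2 scale (adjusted p = 0.236), and both Cdk1 and Plk1 were slightly above 0 once the libraries were brought to one median or normalized by quantile or loess. Aurka, the Aurora kinase of spindle poles, measured 3.68, 4.22 and 3.18 FPKM against 6.61, 5.70 and 4.18 FPKM. It was called lower at the edge of the threshold (-0.46 ± 0.15, adjusted p = 0.0493) although its groups overlapped, and it was not called in the fit of all listed genes (adjusted p = 0.0594). Ccnb1, the main mitotic cyclin, lay under the filter and was not called in that fit (-0.30 ± 0.12, adjusted p = 0.0898).

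Leaving out a single library ended the call of several of these genes. For Ccnb2 this held without anti–VEGF-B replicate 1 or 3 and IgG replicate 1 or 2 (adjusted p = 0.0828, 0.0714, 0.055 and 0.0615), for Cdc25b without any 1 of the 6 (adjusted p between 0.0521 and 0.131), and for Aurka without any but IgG replicate 3 (adjusted p between 0.0591 and 0.157). Ccnb2, Cdc25b and Aurka were also not called under quantile, median, loess or Actb scaling. The transcription factors of the late cell cycle were low in these cells and neither was called. Mybl2, which encodes B-Myb, was at -0.22 ± 0.15 on the log2 scale (adjusted p = 0.302), and Foxm1, under the filter, at -0.21 ± 0.12 (adjusted p = 0.208 in the fit of all listed genes).

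The spindle assembly checkpoint, which delays anaphase until all chromosomes are attached, had 3 tested members and none was called in the limma fit, where 1 of them, Bub1, had an unadjusted p under 0.05. That fit called 23.8% of all tested genes lower. Bub1, a kinase that recruits other checkpoint proteins to kinetochores, measured 9.25, 9.35 and 8.82 FPKM with anti–VEGF-B and 11.5, 10.2 and 11.0 FPKM with IgG. Its groups did not overlap, yet the log2 fold change of -0.23 ± 0.08 missed the threshold (adjusted p = 0.0669). Bub3, its WD40 partner, measured 8.69, 8.94 and 10.0 FPKM against 8.99, 7.86 and 9.00 FPKM, and these values overlapped (0.09 ± 0.10, adjusted p = 0.504). Mad2l1, the gene of the Mad2 protein that binds and holds back Cdc20, was called lower in the fit of all listed genes (-0.34 ± 0.09, adjusted p = 0.0341), but only IgG replicate 3 could be left out without losing the call (adjusted p between 0.0646 and 0.104 otherwise). Quantile, median, loess and Actb scaling each ended the call of Mad2l1 as well.

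The target of that checkpoint, Cdc20, showed one of the clearest differences. Cdc20 activates the anaphase-promoting complex and so starts the separation of sister chromosomes (ENSMUSG00000006398.15, chromosome 4, 118432901 to 118437352). It measured 2.18, 2.77 and 2.31 FPKM with anti–VEGF-B and 4.25, 4.63 and 4.13 FPKM with IgG, with a wide gap between the groups. The fall was 0.64 ± 0.11 (adjusted p = 0.0069), to 55.9% of the IgG mean.

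The other partners of the anaphase-promoting complex were not called. Ube2c, its ubiquitin-conjugating enzyme and the highest gene in this group, measured 8.53, 7.09 and 7.60 FPKM with anti–VEGF-B and 8.52, 6.09 and 7.46 FPKM with IgG, which overlap (0.07 ± 0.12, adjusted p = 0.679). Pttg1, the securin that restrains separase, measured 3.83, 3.75 and 4.22 FPKM against 5.14, 5.26 and 4.37 FPKM. Its groups lay apart, and its log2 fold change of -0.26 ± 0.10 was not called (adjusted p = 0.0834). Espl1, the separase itself, lay under the filter, at -0.21 ± 0.08 in the fit of all listed genes (adjusted p = 0.0899), and Cdca3, which takes part in the degradation that lets cells enter mitosis, was at 0.01 ± 0.10 (adjusted p = 0.95). Of the 16 tested genes on a separate list of subunits and regulators of the complex, limma called none, and 1 had an unadjusted p under 0.05. Over all tested genes 23.8% were called lower.

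Among the kinetochore members 1 gene went against all others. Cenpa encodes the histone H3 variant that marks centromeres (ENSMUSG00000029177.9, chromosome 5, 30666777 to 30674830). It measured 4.50, 5.69 and 5.23 FPKM with anti–VEGF-B and 2.61, 2.27 and 4.03 FPKM with IgG, so that each anti–VEGF-B library was above each IgG library. Cenpa rose by 0.65 ± 0.16 on the log2 scale (adjusted p = 0.0198) and to 173% of the IgG mean. It was called higher under the 4 other scalings, but not without anti–VEGF-B replicate 2, anti–VEGF-B replicate 3 or IgG replicate 2 (adjusted p = 0.0612, 0.0627 and 0.056).

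Ndc80, the subunit of the outer kinetochore that grips microtubules (ENSMUSG00000024056.9, chromosome 17, 71496100 to 71526857), measured 2.74, 2.84 and 1.95 FPKM with anti–VEGF-B and 4.77, 4.81 and 3.70 FPKM with IgG. The groups did not overlap and the fall was 0.63 ± 0.14 (adjusted p = 0.0135, and 0.0508 after quantile normalization). The ratio of Cenpa to Ndc80 in FPKM was 1.64, 2.00 and 2.69 with anti–VEGF-B and 0.548, 0.472 and 1.09 with IgG, with no overlap. Cenpe, a kinesin that carries chromosomes to the spindle equator, measured 0.887, 0.852 and 0.808 FPKM against 1.59, 1.78 and 1.45 FPKM and fell by 0.49 ± 0.10 (adjusted p = 0.0105). Under cyclic loess normalization Cenpe was not called.

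The 3 partners of Ndc80 in its complex all lay under the filter. Spc25 measured 0.102, 0.157 and 0.118 FPKM with anti–VEGF-B and 0.303, 0.492 and 0.397 FPKM with IgG, and was called lower in the fit of all listed genes (-0.31 ± 0.07, adjusted p = 0.0232). This call was kept only without IgG replicate 1 when libraries were left out in turn (adjusted p between 0.0501 and 0.0774 otherwise). Quantile, median and loess scaling also ended the call of Spc25. Nuf2 was at -0.29 ± 0.11 (adjusted p = 0.0729, and 0.0456 without IgG replicate 3) and Spc24 at -0.12 ± 0.13 (adjusted p = 0.503). The levels within this one complex thus ranged from Ndc80, at a few FPKM, to Spc25, well under 1 FPKM.

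In the fit of all listed genes, 2 of the 4 members of the chromosomal passenger complex were called lower, beside 20.6% of all genes. The same 2 were called in the test with the filter, which Birc5 passed through its IgG values. The complex corrects wrong attachments and later steers cytokinesis. Incenp, its scaffold, measured 2.82, 3.19 and 2.31 FPKM with anti–VEGF-B and 3.91, 4.18 and 3.83 FPKM with IgG and fell by 0.41 ± 0.11 (adjusted p = 0.0286). Birc5, which encodes survivin, measured 0.839, 0.904 and 0.781 FPKM against 1.42, 1.32 and 1.15 FPKM and fell by 0.32 ± 0.10 (adjusted p = 0.0405). Both pairs of groups were apart, but neither gene was called under any of the 4 other scalings, Birc5 was not called without any 1 library (adjusted p between 0.0586 and 0.131), and Incenp was not called without anti–VEGF-B replicate 1 or 3 or IgG replicate 2 or 3 (adjusted p between 0.0589 and 0.111).

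Aurkb, the kinase of the same complex, measured 3.29, 4.07 and 4.22 FPKM with anti–VEGF-B and 3.67, 3.74 and 3.86 FPKM with IgG. The values of the groups were mixed, and the log2 fold change was 0.03 ± 0.11 (adjusted p = 0.87). Cdca8, the borealin subunit, was at -0.28 ± 0.12 and was not called (adjusted p = 0.0907). The ratio of Aurkb to Incenp was 1.17, 1.28 and 1.83 with anti–VEGF-B and 0.938, 0.895 and 1.01 with IgG, with no overlap. Such ratios between members restate the levels given above and are no separate result. That of Ndc80 to Nuf2 overlapped, at 11.9, 11.0 and 4.71 with anti–VEGF-B and 7.90, 6.03 and 9.30 with IgG. How often the ratios of other gene pairs lie apart was not counted.

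**Figure D4:**
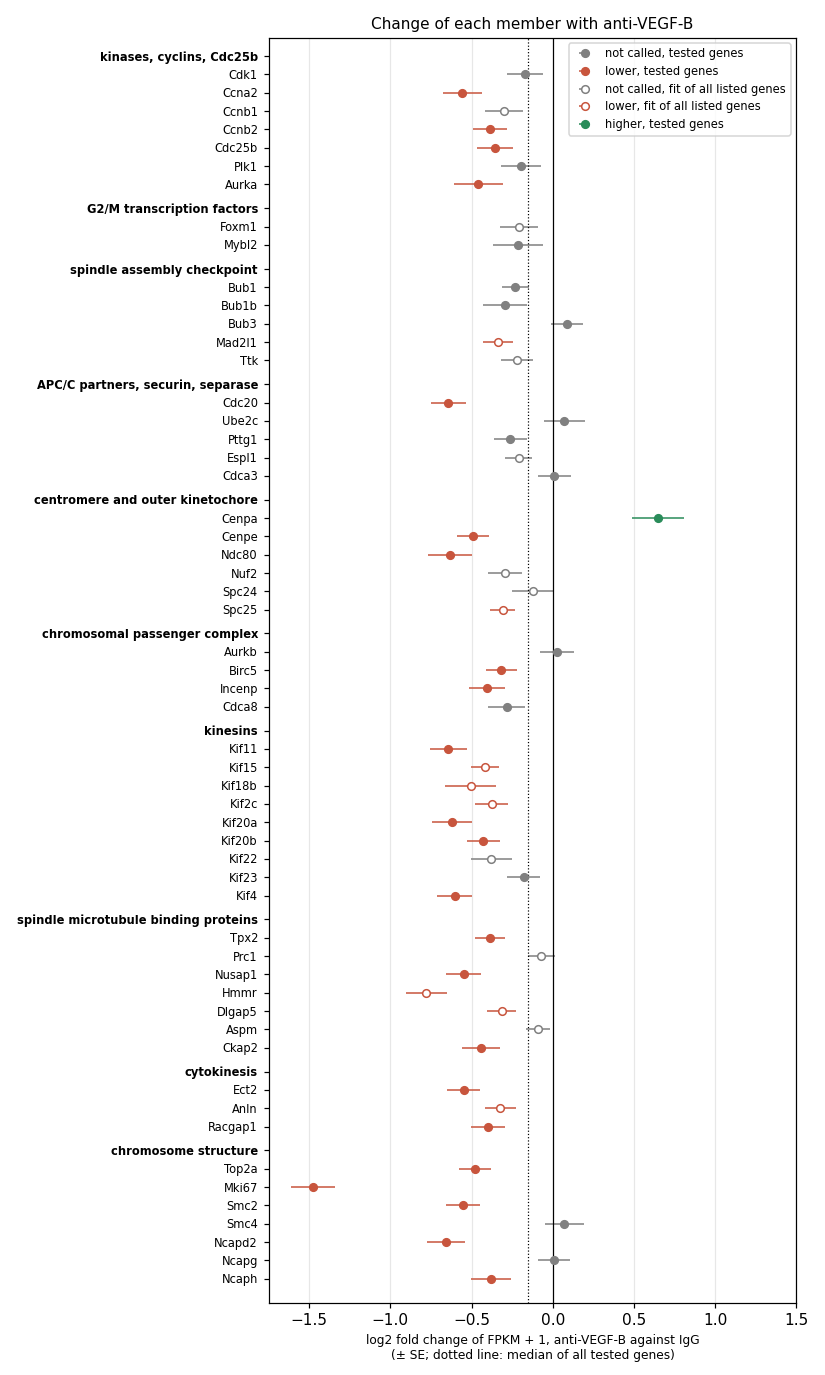
Log2 fold change of FPKM + 1 (anti–VEGF-B against IgG) of each member with its SE, by role; filled points are members with a mean of at least 1 FPKM, open points the 17 members under it, red is called lower, green higher and grey not called. The solid line is at 0 and the dotted line at -0.15, the median of all tested genes; Mki67 lies farthest to the left and Cenpa alone is green.

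Most kinesins, motors that move chromosomes and push spindle poles apart, were lower. All 9 had a log2 fold change below 0 (Kif23 was above 0 under quantile, median and loess scaling), 4 of the 5 tested were called lower, and 7 of 9 were called lower in the fit of all listed genes. Of all listed genes, 20.6% were called lower. Kif20a, 1 of the 4, passed the filter through its IgG values, so the count of tested kinesins is not set against all genes. Kif11, the motor that separates spindle poles (ENSMUSG00000012443.3, chromosome 19, 37376403 to 37421859), measured 2.34, 2.74 and 2.04 FPKM with anti–VEGF-B and 4.25, 4.66 and 3.87 FPKM with IgG. Its groups were well apart and it fell by 0.64 ± 0.11 (adjusted p = 0.00791). Kif4, a chromosome-bound motor, measured 1.37, 1.37 and 1.02 FPKM against 2.44, 2.50 and 2.32 FPKM and fell by 0.60 ± 0.11 (adjusted p = 0.00756), the lowest p among the kinesins.

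Kif20a, a motor of late mitosis and cytokinesis, measured 0.541, 1.01 and 0.672 FPKM with anti–VEGF-B and 1.83, 1.64 and 1.51 FPKM with IgG and fell by 0.62 ± 0.12 (adjusted p = 0.0102). Kif20b fell by 0.43 ± 0.10 (adjusted p = 0.0176, and 0.0731 without anti–VEGF-B replicate 3). The call of Kif20b was also lost under quantile, median and loess scaling, and that of Kif20a under loess scaling. Kif23, which bundles microtubules at the midzone between the separating chromosomes, was the tested kinesin that was not called (-0.18 ± 0.10, adjusted p = 0.205). In the fit of all listed genes Kif15, which works beside Kif11, was called lower (-0.42 ± 0.09, adjusted p = 0.0159, and 0.0642 without anti–VEGF-B replicate 3). Kif2c, a microtubule depolymerase, measured 0.215, 0.132 and 0.0747 FPKM against 0.288, 0.650 and 0.516 FPKM, and Kif18b measured 0.772, 0.412 and 0.107 FPKM against 0.887, 1.13 and 0.970 FPKM. The anti–VEGF-B values of both were spread widely, and both calls (adjusted p = 0.0319 and 0.0464) were lost without anti–VEGF-B replicate 2 or 3 or IgG replicate 2 or 3 (adjusted p between 0.0745 and 0.129), that of Kif2c also without anti–VEGF-B replicate 1 (adjusted p = 0.0509) and that of Kif18b without IgG replicate 1 (adjusted p = 0.0664). Quantile, median and loess scaling also ended the calls of Kif2c and Kif18b, and median centring that of Kif15. Kif22, which pushes chromosome arms outward, was not called (-0.38 ± 0.13, adjusted p = 0.0572) but passed the threshold without IgG replicate 3 (adjusted p = 0.0279).

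Most proteins that bind and bundle spindle microtubules were lower as well. In the fit of all listed genes 5 of the 7 were called lower (20.6% of all genes). The 3 tested were all called lower, but Nusap1 passed the filter through its IgG values, so this count is not set against all genes. Tpx2, which activates Aurora A and nucleates microtubules near chromosomes, measured 4.20, 4.61 and 4.06 FPKM with anti–VEGF-B and 5.92, 6.06 and 5.77 FPKM with IgG. The libraries of each group were close together, and Tpx2 fell by 0.39 ± 0.09 (adjusted p = 0.0171, and 0.0699 without anti–VEGF-B replicate 3). Tpx2 was not called under any of the 4 other scalings. Nusap1, which stabilizes microtubules around chromosomes, measured 1.09, 0.940 and 0.729 FPKM against 1.83, 1.87 and 1.71 FPKM and fell by 0.55 ± 0.11 (adjusted p = 0.00973). Ckap2 fell by 0.44 ± 0.12 (adjusted p = 0.024), a call that was lost without anti–VEGF-B replicate 2 or 3 or IgG replicate 3 (adjusted p = 0.0743, 0.0865 and 0.0753). Under quantile, median and loess scaling Ckap2 was not called, and under loess scaling neither was Nusap1.

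Among the low members of this group, Hmmr, a spindle protein first known as a hyaluronan receptor, had the largest change of the 17 members under the filter. It measured 0.378, 0.207 and 0.0199 FPKM with anti–VEGF-B and 0.976, 1.31 and 0.875 FPKM with IgG. Every IgG library was above every anti–VEGF-B library, and Hmmr fell by 0.78 ± 0.13 (adjusted p = 0.0105 in the fit of all listed genes). Dlgap5 was called lower in the same fit (-0.31 ± 0.09, adjusted p = 0.0378), but without 1 library only with IgG replicate 3 left out (adjusted p between 0.062 and 0.104 otherwise). Dlgap5 was also not called under quantile, median, loess or Actb scaling. Prc1, which cross-links the midzone (-0.07 ± 0.08, adjusted p = 0.539), and Aspm, a spindle pole protein (-0.09 ± 0.08, adjusted p = 0.39), were not called and lay above 0 under quantile, median and loess scaling. Over all 17 members under the filter, 8 were called lower and none higher by limma on all listed genes, and the values of the groups lay apart in 11, where 20.6% of all listed genes were called lower and 38.4% lay apart in this direction. None of the 17 had a higher log2 fold change than the -0.07 of Prc1.

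The 3 cytokinesis genes were lower too. Ect2, the exchange factor that switches on RhoA at the cleavage furrow, measured 1.54, 1.46 and 1.25 FPKM with anti–VEGF-B and 2.35, 2.74 and 2.52 FPKM with IgG. The groups were apart, and Ect2 fell by 0.55 ± 0.10 (adjusted p = 0.00889). Racgap1, its partner at the midzone, measured 1.92, 1.65 and 1.55 FPKM against 2.63, 2.69 and 2.38 FPKM and fell by 0.40 ± 0.10 (adjusted p = 0.022), which was lost without anti–VEGF-B replicate 2 or 3 or IgG replicate 2 (adjusted p = 0.0615, 0.0863 and 0.0514). Anln, which encodes the furrow scaffold anillin, was called lower in the fit of all listed genes (-0.32 ± 0.09, adjusted p = 0.038), and without 1 library only with IgG replicate 1 left out (adjusted p between 0.0661 and 0.113 otherwise). Quantile, median and loess scaling also ended the calls of Racgap1 and Anln, and Actb scaling that of Anln.

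**Figure D5:**
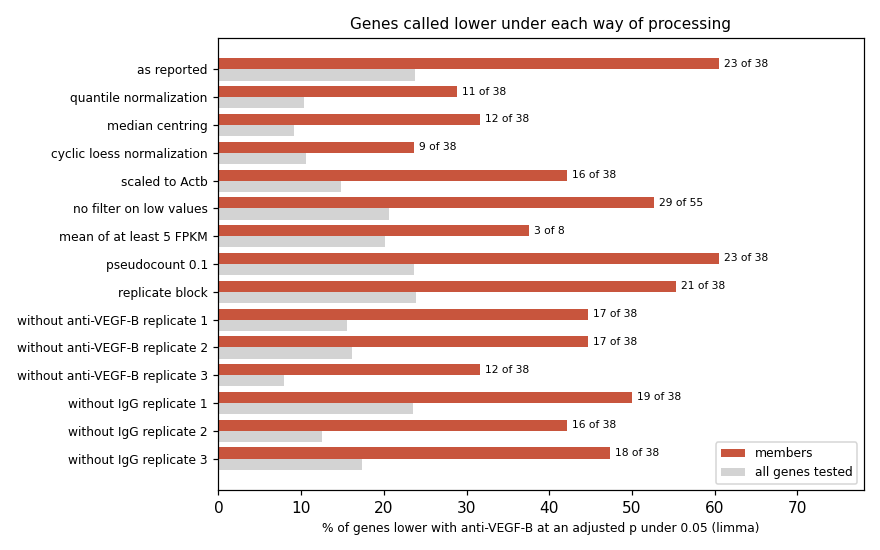
Percent of members (red) and of all genes tested (grey) called lower with anti–VEGF-B at a limma adjusted p under 0.05, for the analysis as reported and each other scaling, filter, pseudocount, block or left-out library, with the number of members called beside each red bar. The members' share is above that of all genes in each setting drawn, at 23.7% against 10.6% under cyclic loess normalization and 60.5% against 23.8% as reported. Not drawn are the fit with no moderation, where it is not above (0 members, 0.0681% of all genes), and the rule on unadjusted p and log2 change (28.9% against 11.3%).

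Further mitotic genes that are not members were read from 7 other lists. On these lists of mitotic genes, with 96 tested genes in all, 22 were called lower, which is 22.9% and close to the 23.8% of all tested genes, and 2 were called higher. In the fit of all listed genes 32 of 128 were called lower, or 25%, against 20.6% of all genes. All anti–VEGF-B values lay under all IgG values in 46.9% of the 128, against 38.4% of all listed genes. The median log2 fold change of the 96 was -0.19. The further kinetochore genes had 9 of 22 lower, with Mis12 (-0.75, adjusted p = 0.0163) and Dsn1 (-0.52, adjusted p = 0.0137), both of the complex that anchors the Ndc80 complex, changed most. Of the genes of the MuvB, DREAM and NF-Y regulators, which act on mitotic promoters, 6 of 14 were lower, led by Tfdp1 (-0.69) and Rbl2 (-0.61), and Nfyb was higher (0.41). Cohesin and its regulators had 2 of 12 lower (Cdca5 and Smc1a, at -0.51 and -0.26), and centrosome and augmin genes 3 of 15 (Haus4 and Haus2, at -0.49 and -0.43, had the largest changes). Condensin II had 0 of 2 called by limma and none with an unadjusted p under 0.05. The further kinesins, spindle, entry and cytokinesis genes had 2 of 15 lower (Gtse1, -0.77, and Cks1b, -0.73) and Kif2a, a microtubule depolymerase, higher (0.34). In the fit of all listed genes 7 of the 31 on this list were lower, or 22.6%. The groups lay apart in this direction in 22 of the 31, or 71%. The difference between the members and these lists was not tested.

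Genes of the earlier cycle phases are given for comparison. Of 43 tested DNA replication genes, 20 were called lower, or 46.5%, and 1 higher, with a median log2 fold change of -0.30, and Fen1 (-0.97) and Mcm3 (-0.93) fell most. Of 16 G1 cyclins, CDKs and CDK inhibitors, 4 were called lower, or 25%, and 1 higher, with a median of -0.16, and Ccnd2 (-0.86) and Ccne1 (-0.51) fell most. All tested genes stood at 23.8% lower and a median of -0.15, close to the G1 list. The tested members stood at 60.5% and -0.39, and the differences between these lists were not tested. The housekeeping gene Actb was not called (-0.07, adjusted p = 0.557), while Gapdh was higher with anti–VEGF-B (0.40, adjusted p = 0.0423).

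Another protein-coding gene overlaps 11 of the members in RefSeq (GRCm38.p6), among them Ccna2 (Exosc9), Cdc20 (Elovl1), Kif20a (Brd8 and Cdc23), Kif4 (Pdzd11), Ncapg (Lcorl) and Nusap1 (Oip5). Each of these partners lies on the opposite strand. The libraries were stranded, but how strand entered the quantification is not given in the sources used here, so that reads of the overlapping genes may be shared in these members' values.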

How the data were processed

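Total RNA of 6 samples was made into stranded libraries (KAPA Stranded RNA-Seq). Reads were mapped by the authors with hisat2 (GRCm38, mm10) and quantified with StringTie and Ballgown. They deposited 1 table of protein-coding genes. The file carries a name for raw data, and counts are spoken of in the study's methods, yet fractional values fill the table, so that they were taken as the FPKM that Ballgown gives. The deposited FPKM are thus an inferred unit, on which each level, filter and share rests. In low values at most 1.38% of genes shared a ratio between libraries, so that reads were not recovered, depth is unknown and count models were not used. No scaling of libraries against each other, and no rule by which the 10995 genes were kept, is stated.

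Columns were matched to samples by their labels. Genes whose mean reached 1 FPKM (8816) were tested as log2(FPKM + 1) with limma 3.58.1 (R 4.3.3, empirical Bayes with trend, no covariate) over all 6 libraries, with Benjamini-Hochberg adjustment over all genes tested, and again over all 10995 genes. The method was tested on simulated data. Members, role groups and other lists were chosen with earlier results of these data known, and counts are set beside those of all genes. Any member could be named. From the other lists, at most 2 called genes of largest change were, and Kif2a and Nfyb, the called rises, were added after their values were seen. Alternatives changed scaling, filter, pseudocount, moderation, call rule, block and libraries. RefSeq gave the overlapping genes, with 55 members matched by symbol. No sequences were used here.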

Additional observations from a re-analysis of the deposited data

How the results depend on the processing

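The 23 members called lower became 11 under quantile, 12 under median and 9 under cyclic loess scaling, 3 of 8 (20.1% of all genes there) at a mean of at least 5 FPKM, 11 when calls needed an unadjusted p under 0.05 and a log2 change of more than 0.5, and 0 in an ordinary linear model with no moderation, where 24 had an unadjusted p under 0.05 and the lowest adjusted p was 0.0693. Of all tested genes, 11.3% were lower by the rule on unadjusted p and log2 change, and 0.0681% with no moderation. Leaving out 1 library gave 12 to 19, the 12 without anti–VEGF-B replicate 3. Over these fits 7.88% to 23.5% of all tested genes were called lower, the 7.88% without anti–VEGF-B replicate 3, and 1.86% to 4.49% higher. The 1 called higher became 0 at 5 FPKM and with no moderation (1 at an unadjusted p under 0.05), and was 0 to 1 over the fits without 1 library, 0 without anti–VEGF-B replicate 2 or 3 or IgG replicate 2. The members' median log2 fold change of -0.39 was -0.16, -0.19 and -0.17 under quantile, median and loess scaling, -0.11 at 5 FPKM, near the -0.09 of all genes there, and -0.51 with a pseudocount of 0.1 (all genes -0.18). Members with no overlap were 4 of 8 lower and 0 higher at 5 FPKM (all genes 33.1% and 14.8%), 5, 4 and 4 of 38 higher under quantile, median and loess scaling (all genes 21.7%, 27.4% and 21.1%), and 1 to 2 higher without 1 library (all genes 12.6% to 13.6%). The cause of the changes with scaling was not tested.

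Replicate numbers did not pair the libraries (correlations of deviations -0.03, 0.11 and 0.09). With a replicate block, 21 members were lower and 1 higher, beside 23.9% and 5.32% of all tested genes. The block ended the calls of Birc5 and Ncaph (adjusted p = 0.0539 and 0.0532) and, among all listed genes, of Kif18b and Kif2c (0.055 and 0.0539).

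Of 816 alternative values for single members, 586 kept direction and call, 196 kept direction and lost the call, 2 gained it and 32 changed sign, all in members that were not called. Under quantile, median and loess scaling these were Cdk1 (0.044, 0.031, 0.064), Plk1 (0.033, 0.0053, 0.031), Spc24 (0.058, 0.10, 0.057), Kif23 (0.046, 0.022, 0.054), Prc1 (0.095, 0.15, 0.096) and Aspm (0.077, 0.13, 0.081), under quantile and loess Mybl2 (0.0013, 0.018), and under median centring Foxm1 (0.017), Ttk (0.0024) and Espl1 (0.014). Leaving out each library gave Ube2c from -0.042 (IgG replicate 2) to 0.17, Cdca3 from -0.039 (IgG replicate 3; -0.036 for anti–VEGF-B replicate 1) to 0.066, Spc24 from -0.22 to 0.0041 (IgG replicate 2), Aurkb from -0.029 (anti–VEGF-B replicate 3, and -0.0072 without replicate 2) to 0.11, Smc4 from -0.037 (IgG replicate 2) to 0.20 and Ncapg from -0.045 (anti–VEGF-B replicate 2, and -0.025 without IgG replicate 1) to 0.069.

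Depth is unknown, so that counting error at low FPKM cannot be given. A description of promoter motifs was planned and was not run, for want of promoter sequences here.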
